A study of Mus musculus with 20 samples.

Results

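Hcn4, Hcn2, Shox2, Tbx3 and Gjc1 are 5 genes of cardiac pacemaking and slow conduction, chosen by their symbols among the 33495 genes of a table of read counts from embryonic mouse heart. Each symbol occurs in the table, and all 5 were followed in all 20 libraries. Hcn4 and Hcn2 encode hyperpolarization-activated channels that carry the pacemaker current. Shox2 and Tbx3 encode transcription factors of the sinus node, where Shox2 opposes the working atrial program and Tbx3 represses working myocardial genes in the node and the atrioventricular conduction system. Gjc1 encodes connexin 45, the gap junction protein of the early heart tube and of slowly conducting node cells. In the embryo the pacemaker forms at the venous pole, next to the atria, and Hcn4 is expressed broadly in the early heart tube before it becomes restricted to the conduction system.

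The libraries came from embryos in which floxed Kmt2d, a histone H3 lysine 4 methyltransferase gene, was deleted by 1 of 3 Cre lines on a C57BL/6 background. Controls carried the same Cre and were Kmt2d fl/+, mutants were Kmt2d fl/fl, and all of them carried 1 copy of the mTmG reporter, so each comparison is of the loss of both alleles with the loss of 1. Mesp1Cre, active in early mesoderm, was profiled in whole hearts labelled E9.0 (4 mutants, 4 controls), Tnnt2::Cre, active in cardiomyocytes, in whole hearts at E11.5 (3 mutants, 3 controls), and Mef2cAHF::Cre, active in anterior heart field precursors, in right ventricle with outflow tract at E11.5 (3 libraries labelled mutant, 3 labelled control). The protocol text gives E11.5 for every heart, against the E9.0 of the Mesp1Cre labels.

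For Mef2cAHF::Cre the genotype depends on the label that is read. Titles, genotype labels and the first header line of the table call the same 3 libraries mutant, whereas the second header line, with the column names, gives each of the 6 libraries the opposite genotype. Both readings are given below: values are by the titles, and by the column names every sign of a Mef2cAHF::Cre genotype difference turns round. The targeted gene Kmt2d, listed as Mll2, was measured at 185 ± 3.72 CPM in the Mef2cAHF::Cre libraries labelled mutant and 149 ± 5.72 CPM in those labelled control (SD, n = 3 each), a rise of 0.32 on the log2 scale (edgeR, FDR 0.0359) that goes against the titles. In Mesp1Cre it stood at 133 ± 7.14 and 156 ± 5.52 CPM (SD, n = 4 each, mutant and control), with a log2 fold change of -0.21 (FDR 0.0764, and -0.23 with FDR 0.0993 without control 4), and in Tnnt2::Cre at 118 ± 4.28 and 149.8 ± 20.8 CPM (SD, n = 3 each), with -0.35 (FDR 0.327). These are counts over the whole gene, in which undeleted exons are included.

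Counts of reads per library ran from 21727258 to 45341870. CPM here is the read count scaled to library size, after TMM scaling of all 20 libraries together, a log2 fold change (log2FC) is mutant minus control from edgeR, and FDR is its p-value adjusted over all genes tested in that comparison, with 0.05 as the threshold. The labels do not say that replicates were separate litters, so p-values measure the spread between these libraries. Between Tnnt2::Cre and Mef2cAHF::Cre, both at E11.5, tissue changed together with the Cre line, and between Mesp1Cre and Tnnt2::Cre, both whole hearts, stage did, so that neither can be told apart from the line and its set of libraries. In these bulk samples, fewer cells of a type and less RNA per cell cannot be told apart either.

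The 5 genes lie on 5 chromosomes of mm9. Hcn4 (ENSMUSG00000032338) spans chr9:58671319-58708762 on the plus strand and Hcn2 (ENSMUSG00000020331) chr10:79179379-79198853 on the plus strand. Shox2 (ENSMUSG00000027833) spans chr3:66777193-66785693 on the minus strand, Tbx3 (ENSMUSG00000018604) chr5:120120678-120134733 on the plus strand, and Gjc1 (ENSMUSG00000034520) chr11:102660893-102681014 on the minus strand. In GENCODE M1, 153 of the exonic bases of Shox2 are shared with Rsrc1 on the opposite strand, and 115 of those of Tbx3 with Gm2301, also on the opposite strand. The sources used here do not state whether counting used strand, so a few reads of Shox2 and Tbx3 may belong to those partners. The deposited counts give Shox2 a length of 1590 bases and Tbx3 5250, against 3371 and 5365 exonic bases in GENCODE M1. Whether the shared bases were among those counted was not checked. The exons of Hcn4, Hcn2 and Gjc1 share no base with another annotated gene.

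RefSeq start regions were found for 3 of the 5 genes, Hcn4, Hcn2 and Shox2. Those of Hcn4 and Shox2 are shown because these are the members that differed most between tissues. Each is the 250 bases before the RefSeq start (build GRCm38.p6), written 5′ to 3′ on the gene's own strand, at chr9:58822699-58822948 (plus) for Hcn4 and chr3:66981772-66982021 (minus) for Shox2. On mm9 the last base of the Hcn4 window lies 564 bases from the gene start given above, and that of the Shox2 window 1 base. Capitals mark matches to 4 motifs, each searched on both strands. The T-box motif was searched as GGTGTG. For NKX2-5 the letters were TNAAGTG. The GATA factor motif was read as AGATAA. The TATA box was taken to be TATAAA.
Hcn4: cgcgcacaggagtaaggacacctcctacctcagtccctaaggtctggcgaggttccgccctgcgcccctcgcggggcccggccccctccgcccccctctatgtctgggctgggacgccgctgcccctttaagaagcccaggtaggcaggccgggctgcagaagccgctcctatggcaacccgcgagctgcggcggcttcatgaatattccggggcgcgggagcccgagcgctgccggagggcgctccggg
Shox2: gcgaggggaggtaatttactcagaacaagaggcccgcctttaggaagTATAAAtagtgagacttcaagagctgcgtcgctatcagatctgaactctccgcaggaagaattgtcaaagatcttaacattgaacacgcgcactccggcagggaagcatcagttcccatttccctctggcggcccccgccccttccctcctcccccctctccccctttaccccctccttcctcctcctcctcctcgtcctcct
Of the 4 motifs the Hcn4 window held none and the Shox2 window held 1, a TATA box match at position -203 from the start. In the same 250-base window, 12.4% of 32851 RefSeq promoters held the TATA box letters, 16.3% the T-box, 10.1% the NKX2-5 and 9.99% the GATA letters. The Hcn4 window was 71.2% G and C and the Shox2 window 55.6%, beside a median of 52.4% over all promoters. The Hcn2 window, 70.4% G and C, held none of the motifs.

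Hcn4 was highest in whole heart at E9.0 and lowest in right ventricle with outflow tract. It stood at 78.8, 54.1, 60.8 and 40.6 CPM in the Mesp1Cre controls and at 65.0, 64.8, 53.7 and 42.5 CPM in the Mesp1Cre mutants. In Tnnt2::Cre whole hearts it stood at 26.1, 22.5 and 23.5 CPM in controls and 31.0, 30.5 and 29.7 CPM in mutants. In right ventricle with outflow tract it stood at 4.94, 4.22 and 5.03 CPM in the libraries labelled control and 10.2, 8.62 and 9.18 CPM in those labelled mutant. From the highest group mean to the lowest, the order was Mesp1Cre controls and mutants, which overlapped, then Tnnt2::Cre mutants, Tnnt2::Cre controls, Mef2cAHF::Cre labelled mutant and labelled control, each without overlap with the next. Over all libraries Hcn4 varied 18.7-fold.

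**Figure D1:**
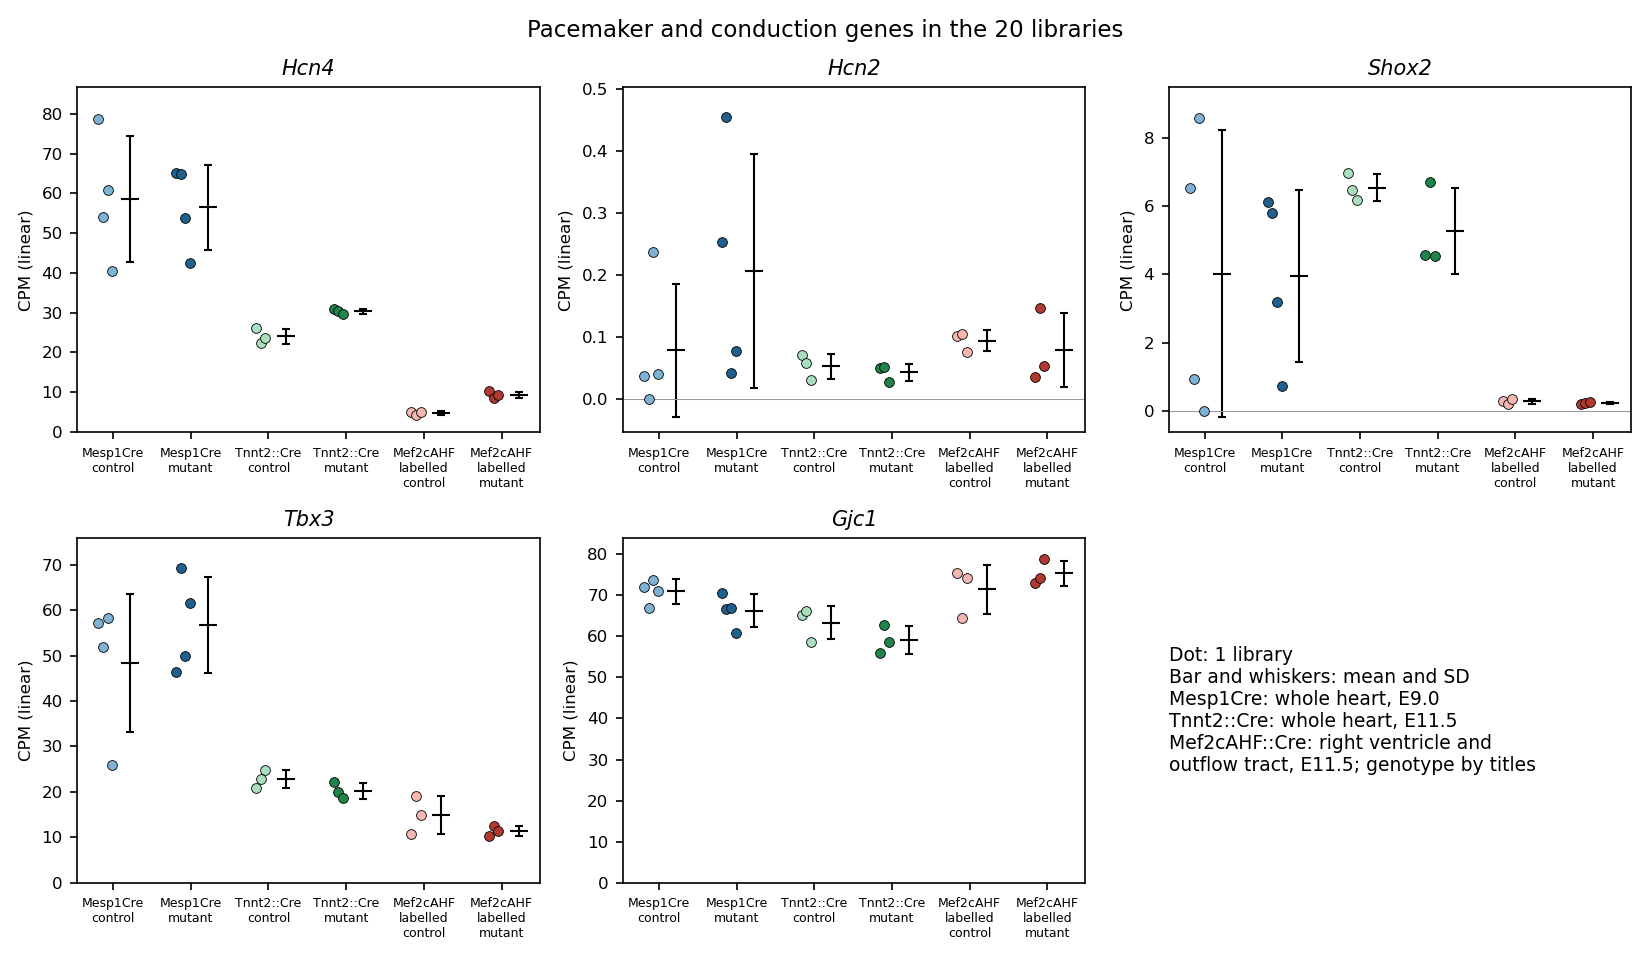
CPM (linear scale, each panel with its own range) of the 5 genes in each library (dots) with the mean and SD of each group. Hcn4 falls from 58.6 CPM in Mesp1Cre controls to 4.73 CPM in the Mef2cAHF::Cre libraries labelled control, whereas Gjc1 stays between 56.0 and 78.7 CPM in all 20 libraries.

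Hcn2 was close to the limit of detection. It had 0 to 12 reads per library and at most 0.454 CPM. The highest values, 12 and 6 reads, were in Mesp1Cre mutants 2 and 1, another 6 reads were in Mesp1Cre control 3, and Mesp1Cre control 2 had 0 reads, which allows a level of up to 0.124 CPM (3 reads, counting error only). All neighbouring group means overlapped in range, and Hcn2 passed the filter on low counts in no comparison, so no test was made.

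Per length (the FPKM of the authors), Hcn4 was far above Hcn2 in every group. Hcn4 stood at 15.0 ± 3.98 FPKM in Mesp1Cre controls (SD, n = 4) and 5.85 ± 0.586 FPKM in Tnnt2::Cre controls (SD, n = 3), and at 1.35 ± 0.0626 FPKM in the Mef2cAHF::Cre libraries labelled control (SD, n = 3), while Hcn2 reached at most 0.150 FPKM in any library.

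Shox2 was present in whole hearts and nearly absent from right ventricle with outflow tract. Tnnt2::Cre controls had 6.98, 6.46 and 6.19 CPM and Tnnt2::Cre mutants 4.56, 6.71 and 4.54 CPM. All 6 Mef2cAHF::Cre libraries lay between 0.211 and 0.340 CPM, which is 6 to 10 reads each. At E9.0 the level split within both genotypes, with 6.55, 0.948, 8.59 and 0 CPM in Mesp1Cre controls and 6.12, 5.79, 3.20 and 0.738 CPM in mutants. Controls 2 and 4 and mutant 4 thus had 23, 0 and 19 reads, where the other 5 libraries had 75 to 217.

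Mesp1Cre control 4 stood apart in more than Shox2. Vsnl1, a calcium sensor gene of the embryonic venous pole and sinus node, had 4.96 CPM there and 67.8 to 116 CPM in the other 3 controls. Nr2f2, which encodes the atrial identity factor COUP-TFII, had 5.57 CPM against 31.6 to 35.7 CPM. Its Hcn4 and Tbx3, 40.6 and 25.9 CPM, were the lowest of the 8 Mesp1Cre libraries, and so was its Tbx5, a T-box gene of the atria and left ventricle, at 103 CPM. Hand1, a left ventricular factor, was highest there of the 8, at 126 CPM. The summed atrial cardiomyocyte markers were not lowest in control 4, at 4895 CPM against 4525 to 5541 CPM in the other 3 controls. Other sums did stand apart there. Sinus node and venous pole factors summed to 624 CPM against 980 to 1042.5 CPM in the other 3 controls. Atrioventricular canal factors summed to 420 CPM against 546 to 595 CPM. Ventricular cardiomyocyte markers summed to 5804 CPM against 3344 to 5167 CPM. The part of tissue composition in this library was not tested. The Mesp1Cre libraries carry a code in their names whose meaning is not given, 1 code for replicates 1 and 2, another for replicate 3 and another for replicate 4, each shared by mutants and controls. Control 4 shares its code with mutant 4, which had the lowest Hcn4 and Shox2 of the mutants, 42.5 and 0.738 CPM. The members' Mesp1Cre genotype and stage values, the Hcn4 interactions and the counts over the pathway lists in these comparisons of genotype and stage are given with and without control 4.

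**Figure D2:**
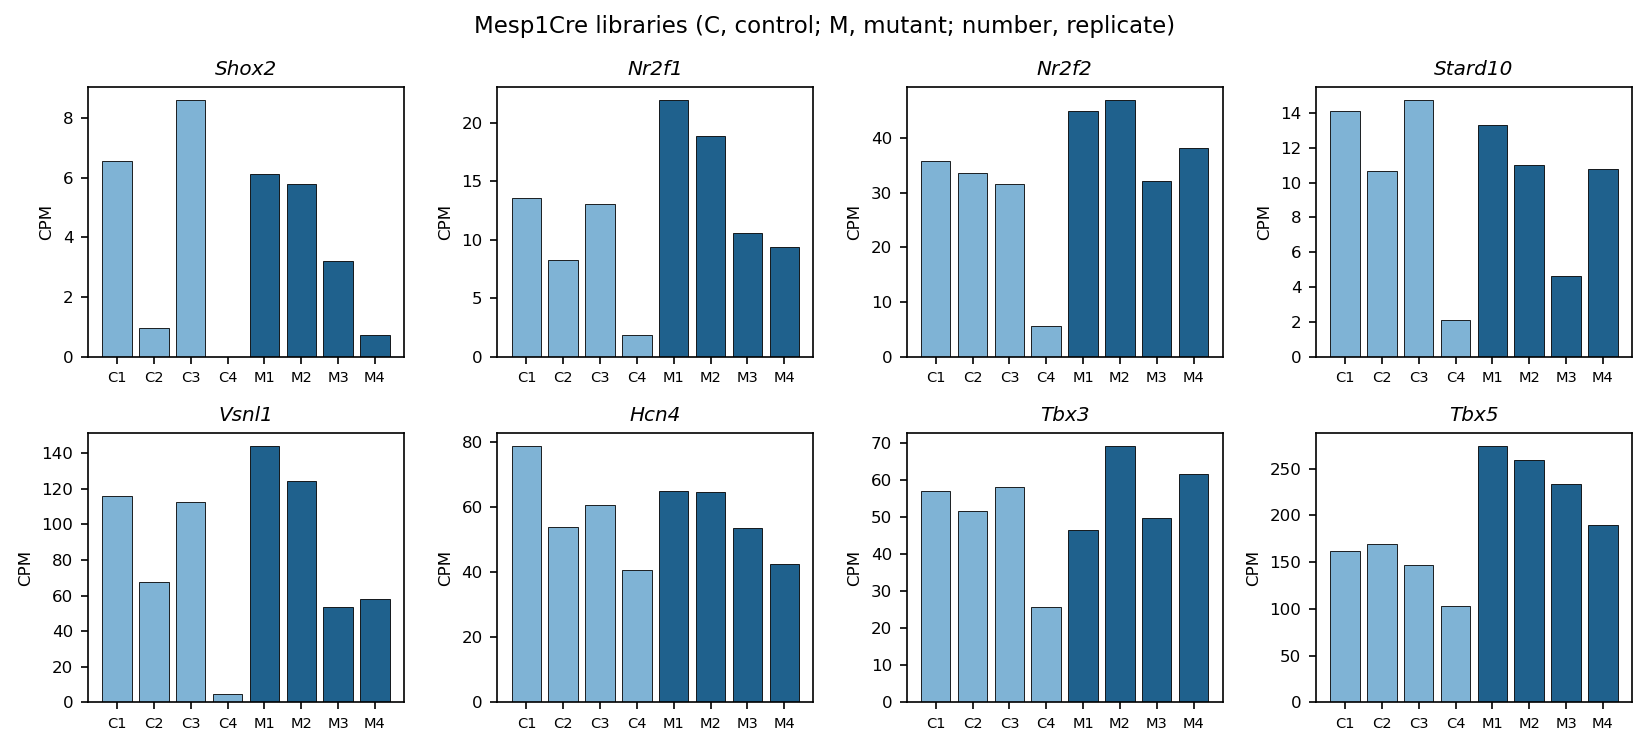
CPM of 8 genes in the 4 control (C) and 4 mutant (M) Mesp1Cre libraries; each bar is 1 library. Control 4 has 0 CPM of Shox2, 4.96 CPM of Vsnl1 and 5.57 CPM of Nr2f2, and control 2 and mutant 4 have Shox2 below 1 CPM while their Nr2f2 is 33.5 and 38.2 CPM.

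Tbx3 was highest at E9.0. It stood at 57.2, 51.8, 58.2 and 25.9 CPM in Mesp1Cre controls and 46.5, 69.3, 49.8 and 61.7 CPM in mutants. Tnnt2::Cre hearts had 20.8, 22.8 and 24.8 CPM in controls and 22.1, 19.98 and 18.7 CPM in mutants. Right ventricle with outflow tract had 10.6, 19.0 and 14.9 CPM in libraries labelled control and 10.2, 12.4 and 11.4 CPM in those labelled mutant. Only the step from Mesp1Cre controls to Tnnt2::Cre controls separated neighbours in this order, and all others overlapped.

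Gjc1 was the steadiest of the 5, with a range of 1.41-fold and a coefficient of variation of 9.36% over the 20 libraries. It stood at 72.0, 66.8, 73.8 and 71.1 CPM in Mesp1Cre controls, 65.1, 66.3 and 58.7 CPM in Tnnt2::Cre controls, and 75.5, 64.5 and 74.2 CPM in the Mef2cAHF::Cre libraries labelled control. The mutant ranges were 60.8 to 70.5 CPM in Mesp1Cre, 56.0 to 62.6 CPM in Tnnt2::Cre and 73.0 to 78.7 CPM in the libraries labelled mutant, and every neighbouring pair of groups overlapped. Per length, connexin 45 had 33.3% ± 1.94 of the summed FPKM of Gjc1, Gja1, Gja5 and Gjd3 in Mesp1Cre controls (SD, n = 4) and 16.1% ± 3.27 in Tnnt2::Cre controls (SD, n = 3). Its own FPKM was 13.6 ± 0.788 and 11.6 ± 1.10 in these groups, while that of Gja1, which encodes connexin 43 of working myocardium, was 15.8 ± 1.09 and 33.9 ± 5.04. Gja5, which encodes connexin 40 of atria and fast-conducting cells, had 11.3 ± 2.78 and 27.6 ± 4.86 FPKM in the same groups.

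**Figure D3:**
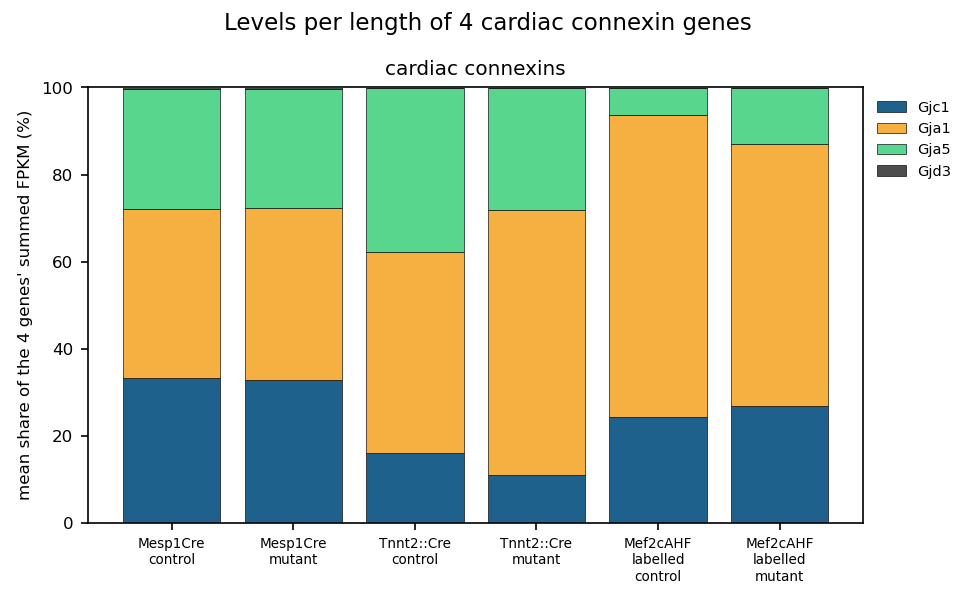
Mean share (%) of each gene in the summed FPKM of 4 cardiac connexin genes in each group (stacked bars). Gjc1 holds 33.3% of the connexin sum in Mesp1Cre controls and 11.002% in Tnnt2::Cre mutants.

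The first comparison asked whether loss of both Kmt2d alleles in early mesoderm changed these genes. In Mesp1Cre, 0 of the 4 members tested passed the threshold, where 6.17% of 15883 genes rose and 5.29% fell, and 0 had a p-value below 0.05 before adjustment. DESeq2 and limma on FPKM also called 0. Hcn4 had a log2FC of -0.03 (SE 0.18, FDR 0.933), Shox2 -0.01 (SE 0.91, FDR 0.997), Tbx3 0.25 (SE 0.22, FDR 0.499) and Gjc1 -0.08 (SE 0.08, FDR 0.589). Mutants and controls overlapped for each of them, whereas 18.1% of genes did not overlap. Without control 4 the values were -0.18 for Hcn4, -0.42 for Shox2, 0.04 for Tbx3 and -0.08 for Gjc1, and still none passed (FDR 0.569 to 0.890). With the library code as a block, a fit chosen after seeing the data, they were -0.03, 0.51, 0.31 and -0.08, and none passed (FDR 0.402 to 0.920). The log2FC of Shox2 ran from -0.42 to 0.68 as single libraries were left out. Among marker lists, the summed endocardial and endothelial level was 658 to 769 CPM in mutants and 511.2 to 606 CPM in controls, without overlap. That of endoderm and liver was 4.50 to 13.4 CPM in mutants and 2.24 to 3.56 CPM in controls, also without overlap. Of these 8 low markers only Sox17 was high enough to be tested, and it rose by 2.04 on the log2 scale, past the threshold. Alb had 0 reads in every mutant. The summed erythroid level was 1923 to 7470 CPM in mutants and 5427 to 17916 CPM in controls. A fit with the mean log2 CPM of the erythroid markers as a covariate also called 0 members. That fit called 235 genes in all, against 1821 in the main fit, so its 0 says little about the members. The part of any cell type, blood included, was not tested.

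Other genes of pacemaking and conduction were read from 5 lists with 51 genes in all. These were other connexins, sinus node and venous pole factors, atrioventricular canal factors, fast conduction and ventricular conduction genes, and calcium and potassium currents. In Mesp1Cre 4 of the 48 tested rose and 1 fell, 10.4% of them, which lies near the 6.17% and 5.29% of all genes. Without control 4 the counts were 3 and 1. Rgs6, a regulator of the muscarinic response, rose by 1.11 on the log2 scale (FDR 0.0127), Tbx5 by 0.74 (FDR 0.00715), Ryr2, the calcium release channel, by 0.58 (FDR 0.00714) and Cacna1c, the main L-type calcium channel, by 0.48 (FDR 0.0211). Without control 4 Rgs6 had 0.96 (FDR 0.0350), Tbx5 0.60 (FDR 0.00961) and Ryr2 0.53 (FDR 0.0251), while Cacna1c, at 0.46, no longer passed (FDR 0.0567). Rspo3, a secreted activator of Wnt signalling, fell by 0.92 (FDR 0.000258), and by 0.91 without control 4 (FDR 0.00127). The median log2FC of the list genes was 0.05, beside -0.00182 over all genes tested.

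In Mef2cAHF::Cre, Hcn4 was the single member past the threshold of the 3 tested (2.85% of 16920 genes were). It was higher in every library labelled mutant than in any labelled control, a 1.98-fold difference (log2FC 0.98, SE 0.14, FDR 0.00983), and 23.9% of genes did not overlap between these groups. By the column names the same difference reads as a fall by -0.98 in the mutants. All 10 alternative fits with all libraries called it, with FDR from 5.05e-06 to 0.0440 and log2FC from 0.55 to 0.98, and 5 of 6 that left out a library did, while without library 1 of those labelled mutant the FDR was 0.0644 and 0 members passed. Tbx3 had a log2FC of -0.39 (SE 0.19, FDR 0.329) and Gjc1 0.08 (SE 0.08, FDR 0.663), with overlapping groups. Shox2, at 6 to 10 reads in each of the 6 libraries, was too low to be tested.

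**Figure D4:**
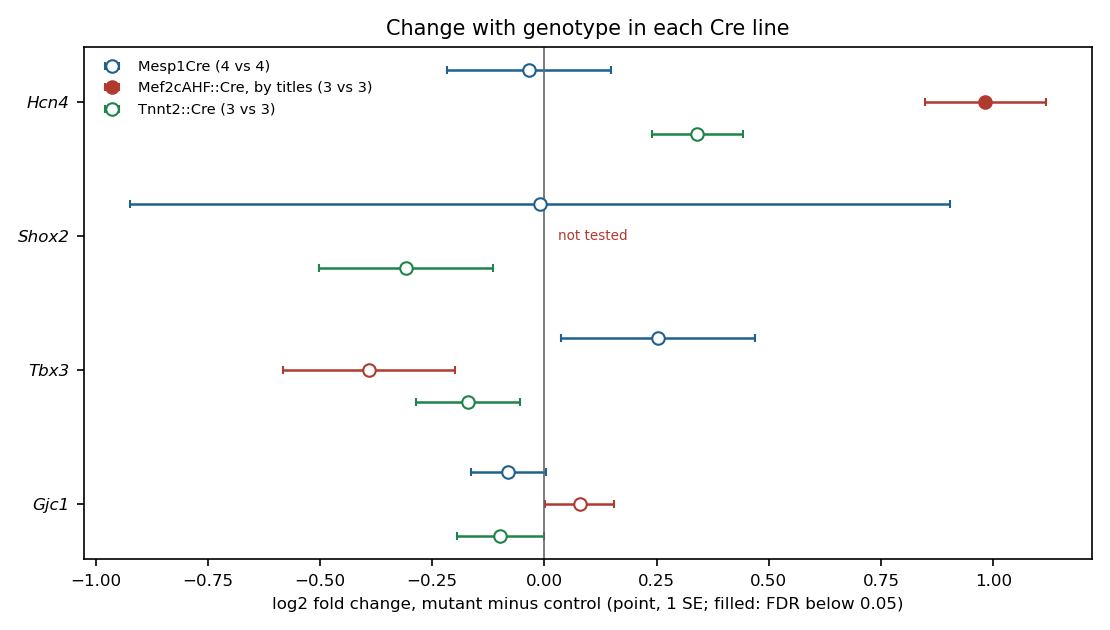
log2 fold change, mutant minus control, with 1 SE for the tested members in each Cre line, Mef2cAHF::Cre by the titles; filled points have an FDR below 0.05. Hcn4 in Mef2cAHF::Cre, at 0.98, is the single filled point, and by the column names its position would be -0.98.

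Some summed marker lists of cell types also differed between the libraries labelled mutant and control, where 23.9% of single genes did not overlap. The summed level of 10 atrial cardiomyocyte markers was 2125 to 2443 CPM in the libraries labelled mutant and 1306 to 1962 CPM in those labelled control, without overlap, although 0 of the 10 passed the threshold in edgeR (median log2FC 0.42). Ventricular markers summed to 6661 to 7083.5 CPM and 5172.5 to 6587 CPM, also without overlap, endocardial and endothelial markers to 635 to 663 CPM and 564 to 609 CPM, and general cardiomyocyte markers to 27226 to 32440 CPM and 22164 to 28621 CPM, with overlap. Erythroid markers summed to 24724 to 46664 CPM and 7183 to 31897 CPM, with overlap. Epicardial markers, at 222 to 230 CPM and 224 to 273 CPM, overlapped too. So did outflow and second heart field markers, at 189 to 325 CPM and 207 to 281 CPM. Smooth muscle markers, at 1119 to 1225 CPM and 882 to 1201 CPM, also overlapped. None of these lists had a marker at 0 in every library of a group. A fit with erythroid content as a covariate also called Hcn4. The part of any cell type in its difference, blood included, was not tested.

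In the same comparison 7 of 50 tested list genes rose and 1 fell by the titles, and 7 fell and 1 rose by the column names, 16.0% of them beside 2.85% of all genes. Kcnj3, a subunit of the acetylcholine-gated potassium channel of atria and node, rose by 1.49 on the log2 scale (FDR 0.0396), from 3.49 ± 1.79 to 9.85 ± 2.01 CPM (SD, n = 3 each). Gja5 rose by 0.92 (FDR 0.0195) and Rspo3 by 0.77 (FDR 0.0214). Kcne1, a subunit of the slow delayed rectifier potassium channel, fell by 0.71 (FDR 0.0169). The remaining 4 that rose were Gja4, Gnao1, Cacna1d and Cacna1h, between 0.56 and 0.77. The median of the list was 0.16, beside -0.00671 over all genes.

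In Tnnt2::Cre, where Cre is active in differentiated cardiomyocytes, edgeR called 0 of 4 tested members, at a background of 0.293% of 17045 genes. Hcn4 had a p-value below 0.05 before adjustment in edgeR, and DESeq2 and limma on FPKM called 0 members. Hcn4 was higher in each mutant than in each control (1.27-fold, log2FC 0.34, SE 0.10, FDR 0.262), and 16.9% of genes had such separated groups. The values of the other 3 overlapped between genotypes, with log2FC of -0.31 for Shox2 (SE 0.19, FDR 0.574), -0.17 for Tbx3 (SE 0.12, FDR 0.613) and -0.10 for Gjc1 (SE 0.10, FDR 0.740). Of the list genes, 0 of 48 tested passed. Summed atrial markers were 6004 to 6624 CPM in mutants and 4942 to 7125 CPM in controls, and erythroid markers 18969 to 130728 CPM and 102659 to 158321 CPM. Outflow and second heart field markers summed to 52.5 to 63.7 CPM in mutants and 90.6 to 129.6 CPM in controls, without overlap, and 1 of the 6 tested passed, Rgs5, lower by 3.60 on the log2 scale (FDR 0.00211). The 12 fast conduction and ventricular conduction genes, Nppa among them, summed to 1030 to 1233 CPM in mutants and 693 to 984 CPM in controls. These sums did not overlap either, although 0 of the 12 passed the threshold (median log2FC 0.17). Such a sum follows its most abundant genes. The part of these cell types in the Hcn4 values was not tested.

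Whether Hcn4 responded differently between lines was tested as an interaction in 1 fit of all 20 libraries. Between Mesp1Cre and Mef2cAHF::Cre by the titles, its log2FC differed by -1.03 (SE 0.25, FDR 0.00997), and 11.3% of 18391 genes passed this test. By the column names the difference was 0.93 (SE 0.25, FDR 0.0638), with 1.63% of genes past the threshold. For Mef2cAHF::Cre set against Tnnt2::Cre it came to 0.64 by the titles (FDR 0.231, background 3.19%) and -1.32 by the column names (edgeR p-value 7.46e-05, FDR 0.427), where edgeR called 0 genes and DESeq2 called Hcn4. Between Mesp1Cre and Tnnt2::Cre it was -0.39 (FDR 0.391, background 3.04%). Without Mesp1Cre control 4 the Mesp1Cre interactions of Hcn4 were -1.17 (FDR 0.00179) and 0.79 (FDR 0.0765) with Mef2cAHF::Cre by titles and column names, and -0.53 (FDR 0.169) with Tnnt2::Cre. Tbx3 and Gjc1 passed in none of the 5 interaction tests in edgeR, with unadjusted p-values from 0.0604 to 0.984. For Shox2 the interactions with Mef2cAHF::Cre rest on 6 to 10 reads per library and are not read here, and that of Mesp1Cre and Tnnt2::Cre was 0.29 (FDR 0.926) and -0.13 without control 4 (FDR 0.955). These lines differ in stage or tissue as well as in Cre.

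The second comparison set right ventricle with outflow tract against whole heart at E11.5, where the whole heart also holds the atria, the venous pole and the atrioventricular canal. It was made between controls by each reading of the Mef2cAHF::Cre labels and, free of that choice, between the means of both genotypes. By the titles 3 of 4 tested members passed, all lower, with 40.2% of 18212 genes past the threshold in either direction and 21.4% lower. By the column names 4 passed (background 30.4%), 3 of them lower (16.7%), and averaged over genotypes again 4 (background 49.3%), 3 of them lower (25.7%). The groups of libraries did not overlap for 51.6% of genes by the titles and 49.9% by the column names. With such backgrounds a call by itself is common, and the sizes are the more informative values.

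Shox2 is counted among these, but it passed the filter on low counts through the whole hearts alone, so it had to differ, and its values are a description. Its log2FC was -4.50 by the titles, -4.76 by the column names and -4.48 averaged. Whole-heart libraries had at least 163 reads and right ventricle and outflow tract libraries at most 10. On log2(FPKM + 1), where the pseudocount compresses low levels, the averaged value was -1.94.

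Hcn4 was 5.08-fold lower by the titles (log2FC -2.34, SE 0.11, FDR 1.82e-07) and 2.57-fold lower by the column names (log2FC -1.36, SE 0.11, FDR 7.62e-06). Averaged over genotypes the log2FC was -2.02 (SE 0.08, FDR 6.63e-09). All 6 right ventricle and outflow tract libraries lay below all 6 whole-heart libraries for Hcn4, and 24.5% of genes were separated in this way.

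Tbx3 differed less. Its log2FC was -0.62 by the titles (SE 0.17, FDR 0.0119), -1.01 by the column names (SE 0.17, FDR 0.00100) and -0.73 averaged (SE 0.12, FDR 0.000313). By the titles it no longer passed on FPKM (FDR 0.105 and 0.108 with pseudocounts of 0.1 and 1) or in the fit of all 20 libraries (FDR 0.0553). Gjc1 had a log2FC of 0.17 by the titles (SE 0.08, FDR 0.111), 0.25 by the column names (SE 0.08, FDR 0.0358) and 0.26 averaged (SE 0.06, FDR 0.00248). By the titles Gjc1 passed on FPKM (limma FDR 0.0133 with either pseudocount). With pseudocounts of 0.1 and 1, log2FC on FPKM was 0.40 and 0.37 for Gjc1 and -0.41 and -0.32 for Tbx3. The median of all genes was 0.23 and 0.13 in these fits, beside 0.02 in edgeR, so FPKM moved genes upward in general. The column-name call of Gjc1 was lost with the filter of at least 1 count (FDR 0.111) and in each of the 6 fits that left out a library (FDR 0.0507 to 0.131), and the averaged call held in all 12.

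**Figure D5:**
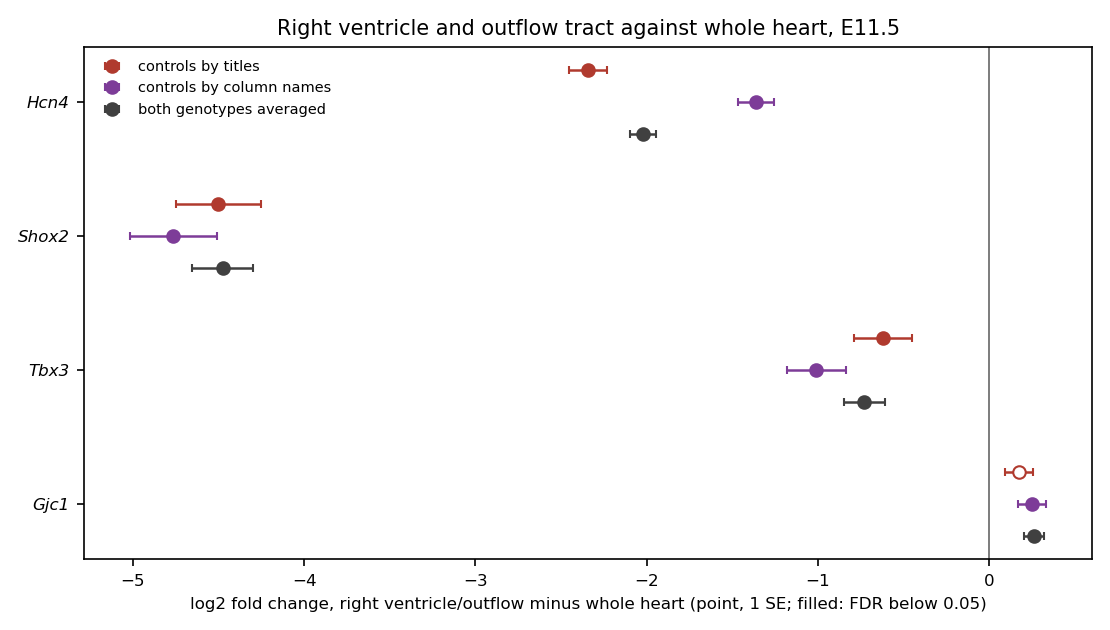
log2 fold change, right ventricle and outflow tract minus whole heart at E11.5, with 1 SE, for 3 readings of the groups; filled points have an FDR below 0.05. Shox2 lies between -4.76 and -4.48 and Hcn4 between -2.34 and -1.36, whereas Gjc1 lies between 0.17 and 0.26.

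Lists for the parts of the heart moved in the same comparison. All 10 atrial markers were lower averaged over genotypes (median log2FC -2.04), and their sum was 1306 to 2443 CPM in right ventricle with outflow tract and 4942 to 7125 CPM in whole heart. Of 7 tested outflow and second heart field markers 5 were higher and 1 lower (median 1.53), led by Isl1 of second heart field progenitors at 2.41 (FDR 1.00e-06). Erythroid markers were lower for 9 of 10 (median -1.54). Of the 12 sinus node and venous pole factors 3 rose and 8 fell, among them Vsnl1 at -4.71 (FDR 1.04e-07) and Bmp4, a BMP ligand gene, at 1.43 (FDR 1.44e-07). Connexin and conduction genes included Gja5 at -2.51 (FDR 2.83e-08) and Nppa, the atrial natriuretic peptide gene, at -2.62 (FDR 3.22e-07). Gjb2, which encodes connexin 26, stood at 2.55 (SE 0.68, FDR 0.00761), with 0 to 9 reads per whole-heart library. It had 6, 57 and 3 reads (0.204, 2.00 and 0.113 CPM) in the libraries labelled control. In those labelled mutant it had 24, 28 and 22 reads (0.853, 1.03 and 0.596 CPM). Over the 50 tested list genes 13 rose and 22 fell, 70.0% beside 49.3% of all genes, with a median of -0.29 beside 0.01 over all genes. The part of atrial tissue or blood content in the values of Hcn4 and Shox2 was not tested.

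The third comparison set E11.5 against E9.0 in whole-heart controls, Tnnt2::Cre against Mesp1Cre. Of the 4 members tested 2 passed, both lower at E11.5, where 38.3% of 16697 genes passed and 18.8% were lower. Hcn4 was 2.49-fold lower (log2FC -1.32, SE 0.19, FDR 0.000245) and Tbx3 2.16-fold lower (log2FC -1.11, SE 0.23, FDR 0.00282), with no overlap between groups, as for 45.4% of genes. Gjc1 had a log2FC of -0.19 (SE 0.08, FDR 0.0905) with no overlap. Shox2 had 0.67 (SE 0.86, FDR 0.574), since the E9.0 controls spread from 0 to 8.59 CPM. Without Mesp1Cre control 4 the values were -1.46 for Hcn4 (FDR 4.20e-05), -1.32 for Tbx3 (FDR 1.48e-05), -0.19 for Gjc1 (FDR 0.128) and 0.25 for Shox2 (FDR 0.742).

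Among list genes in this stage comparison, 11 of 49 rose and 21 fell, 65.3% beside 38.3% of all genes, and without Mesp1Cre control 4 the counts were 9 and 25. Each gene named next also passed without that library. Cacna1g, a T-type calcium channel, rose by 2.52 on the log2 scale (FDR 0.000395), Kcne1 by 2.07 (FDR 3.01e-05) and Tbx18, a factor of the sinus horn and epicardium, by 1.61 (FDR 0.00308). Msx2 of the atrioventricular canal fell by 1.65 (FDR 2.39e-05), Isl1 by 1.55 (FDR 0.00839) and Cacna1d, an L-type calcium channel of pacemaker cells, by 1.47 (FDR 3.79e-05). All 7 epicardial markers and all 10 erythroid markers were higher at E11.5, with medians of 1.86 and 2.96, and their part was not tested.

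The genes whose log2 CPM followed each member most closely over the 20 libraries, among 12310 or 12311 genes compared, are given as a description, since libraries of a group share stage, tissue and line. Hcn4 was closest to Myl7, the atrial myosin light chain gene (Pearson r 0.98), Itga6 (0.98) and Adora1, an adenosine receptor gene (0.97). With group means removed these fell to 0.43, 0.61 and 0.71. Shox2 was closest to Nr2f1 (0.93), Nr2f2 (0.90) and Stard10 (0.90), all 3 on the atrial marker list, and with group means removed they stood at 0.90, 0.84 and 0.79. Mesp1Cre control 4, with 0 reads of Shox2, also had the lowest Nr2f1 and Stard10 of its group, 1.87 and 2.11 CPM. Tbx3 was closest to Rps28, a ribosomal protein gene (0.95), and Msx2 (0.93), which fell to 0.65 and 0.63 with group means removed. Gjc1 was closest to Ankrd26 (0.89), Zfp458 (0.84) and Ankhd1 (0.84), which fell to 0.73, 0.45 and 0.43. For Hcn2, with 0 to 12 reads, the values of 0.80 for Mcart6, 0.80 for AL805955.1 and 0.74 for Spire1 rest on a few reads.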

How the data were processed

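RNA was sequenced from 20 embryonic heart samples. Reads were aligned to mm9 with TopHat2 2.0.8b per the submitters' processing notes, and the authors assigned them to genes with featureCounts. The deposited table gives raw counts, not normalized by the authors, and beside them FPKM that the authors computed with USeq. Its other 20 columns, variance-corrected log2 values, were not used. The labels and the study's methods name different library kits, and strand use in counting is not given in the sources used here.

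Counts were tested in R 4.3.3 with edgeR 4.0.16 (TMM scaling, low counts removed by filterByExpr, quasi-likelihood F test, Benjamini-Hochberg adjustment over all genes tested, threshold 0.05). Genotype was tested within each line, tissue and stage between lines, and interactions in 1 fit of all 20 libraries. Alternatives were DESeq2 1.42.0, its size factors, filters of at least 1 count and of at least 10 counts in every library, limma 3.58.1 on log2(FPKM + 0.1) and log2(FPKM + 1), 1 fit of all libraries, counts thinned to 21727258, a replicate block, the library code as a block (Mesp1Cre), erythroid content as a covariate, and each library left out. The edgeR step was tested on simulated data. At the depths here 3 reads are 0.0705 to 0.128 CPM, a floor for counting error only.

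Replicate numbers were not used to pair the samples in the main fits. Deviations of same-numbered samples correlated from -0.0313 to 0.127, which cannot exclude a shared litter or batch. In Mesp1Cre the library names also carry a code of unstated meaning that same-numbered mutants and controls share, and a fit with it as a block was added after seeing the data. The 5 genes and all gene lists were chosen with earlier results of these data known. Other genes were named by rule: Kmt2d, the 3 genes most alike to each member in log2 CPM (prior count 2, average of at least 1), and, among pathway-list genes past the threshold, up to 3 with the largest rise and 3 with the largest fall. Further ones (Cacna1c, Gja4, Gnao1, Cacna1d and Cacna1h in Mef2cAHF::Cre, family members compared per length, and those named for Mesp1Cre control 4) were chosen after their values were seen. One gene that the rule would name, and a list that held it, are not reported here.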

Additional observations from a re-analysis of the deposited data

Results flagged for a closer look

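The genotype difference of Hcn4 itself differed between Mesp1Cre and Mef2cAHF::Cre when the latter is read by the titles. The interaction was -1.03 on the log2 scale (SE 0.25, edgeR FDR 0.00997), from a log2FC of -0.03 in Mesp1Cre and 0.98 in Mef2cAHF::Cre. It passed under all 4 alternatives (FDR 0.00148 to 0.0102) and in all 14 fits that left out a library (FDR 0.00179 to 0.0402, log2 values -1.17 to -0.86). By the column names the difference had the opposite direction, 0.93 (FDR 0.0638 in edgeR), and passed in 3 of 4 alternatives (FDR 0.0138 to 0.0456) and in 2 of 14 fits that left out a library (FDR 0.0220 and 0.0325). Kmt2d was higher in the libraries labelled mutant, against the titles. The lines also differ in stage and tissue, which cannot be told apart from Cre here. In the 2 Mesp1Cre groups of 4 libraries, none of the 10 sets of values of the 5 genes held one that stood far enough from the rest to meet Dixon's criterion. With 4 values per set the criterion has little power, and no conclusion on Mesp1Cre control 4 is drawn from it.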

How the results depend on the processing

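Calls of members in the tissue and stage comparisons kept their counts to within 1.5 times in every alternative, and 192 of 200 recomputed counts did overall. The Mef2cAHF::Cre genotype count ran from 0 to 1 as libraries were left out, 0 being without library 1 of those labelled mutant. By the column names, 1 member (Hcn4) and not 0 was called in the Mef2cAHF::Cre and Tnnt2::Cre interaction with DESeq2 and with the filter of at least 1 count (FDR 0.0130 and 0.00625), and in the Mesp1Cre and Mef2cAHF::Cre interaction with these and with at least 10 counts (FDR 0.0138, 0.0156 and 0.0456). In the latter the count ran from 0 to 1 with libraries left out, 1 being without Mesp1Cre control 1 or mutant 4 (FDR 0.0220 and 0.0325). Leaving out libraries in the interactions was chosen after seeing the data.

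None of the 53 single-gene values that changed sign passed the threshold, and the cause was not tested. In Mesp1Cre on FPKM, with pseudocounts of 0.1 and 1, log2FC was 0.14 and 0.13 for Hcn4, 1.01 and 0.33 for Shox2, and 0.076 and 0.071 for Gjc1, where the median of all genes was 0.15 and 0.11. Gjc1 on FPKM was -0.053 and -0.050 in Mef2cAHF::Cre and 0.017 and 0.017 in Tnnt2::Cre, where that median was -0.13 and -0.10, and 0.11 and 0.08. In Mesp1Cre, Shox2 was 0.79 with the replicate block, 0.51 with the library code as a block and 0.066 with erythroid content. The code as a block, chosen after seeing the data, changed no other direction and no call. The replicate block changed no other direction and no call. With at least 1 count, Gjc1 was -0.0020 in the Mef2cAHF::Cre and Tnnt2::Cre interaction and 0.0027 in the Mesp1Cre and Mef2cAHF::Cre interaction, both by the column names.

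With libraries left out, Mesp1Cre values ran from -0.18 to 0.14 for Hcn4 and -0.42 to 0.68 for Shox2. Interactions of Mesp1Cre and Tnnt2::Cre ran from -0.034 to 0.054 for Gjc1 and -0.13 to 0.96 for Shox2. Those of Mef2cAHF::Cre and Tnnt2::Cre ran by the titles from -0.13 to 0.26 for Shox2 and -0.41 to 0.00025 for Tbx3, and by the column names from -0.018 to 0.093 for Gjc1. Those of Mesp1Cre and Mef2cAHF::Cre ran by the titles from -0.17 to 0.91 for Shox2, and by the column names from -0.70 to 0.39 for Shox2, -0.091 to 0.032 for Gjc1 and -0.36 to 0.062 for Tbx3. The Shox2 interactions with Mef2cAHF::Cre rest on 6 to 10 reads per library. Depth limits Hcn2 everywhere and Shox2 in right ventricle with outflow tract, where 6 to 10 reads per library allow no genotype test.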

Other observations

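Rspo3, which encodes a secreted activator of Wnt signalling and is on the list of atrioventricular canal factors, was separated by genotype in all 3 lines. Such separation was found for 18.1% of genes in Mesp1Cre, 16.9% in Tnnt2::Cre and 23.9% in Mef2cAHF::Cre. In Mesp1Cre it stood at 35.4, 35.3, 35.0 and 36.5 CPM in controls and 16.7, 20.2, 17.0 and 20.1 CPM in mutants, a fall by 0.92 on the log2 scale (edgeR FDR 0.000258). In Tnnt2::Cre it stood at 27.1, 23.1 and 26.7 CPM in controls and 13.3, 14.5 and 18.9 CPM in mutants, with a log2FC of -0.72 that did not pass (FDR 0.122). In Mef2cAHF::Cre it stood at 22.1, 15.3 and 21.0 CPM in libraries labelled control and 34.1, 34.0 and 32.0 CPM in those labelled mutant (log2FC 0.77, FDR 0.0214), which by the column names reads as -0.77. The interaction of Mesp1Cre and Mef2cAHF::Cre was -1.72 by the titles (FDR 1.03e-05) and -0.17 by the column names (FDR 0.712). Rspo3 was singled out after its values were seen.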
